A study of Homo sapiens with 4 samples.

Results

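The NADPH oxidase and dual oxidase (DUOX) genes were read from RNA-seq of the HaCaT line, immortalized keratinocytes of human epidermis. A fixed list of gene symbols gave 9 members, NOX1, NOX4, NOX5, CYBA, CYBB, RAC1, DUOX1, DUOX2 and DUOXA1, each with 1 entry among the 19233 protein-coding genes and 44591 genes of the data. The screen held 1 group of 4 untreated replicates, with no treatment, mutation or transgene in any of them, so levels were compared between genes and between replicates and not between conditions. The medium held 12% serum by the labels, while the methods of the study give another share, and the replicates are called biological repeats in the study without word on how the cultures were kept apart. Levels are given as TPM, the reads of a gene divided by its length and scaled to 1000000 over the protein-coding genes of the library.

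NADPH oxidases are membrane enzymes that pass electrons from NADPH across the membrane to oxygen and so make superoxide or hydrogen peroxide on purpose. The catalytic subunits are the NOX proteins and the longer DUOX proteins, which carry an extra peroxidase-like domain and are switched on by calcium. CYBA encodes p22phox, the membrane partner of NOX1, NOX4 and the phagocyte subunit encoded by CYBB, and RAC1 encodes a small GTPase that helps to switch on NOX1 and the CYBB enzyme among its many other tasks. DUOX1 and DUOX2 instead leave the endoplasmic reticulum with the help of the maturation factors DUOXA1 and DUOXA2. In epithelia such as airway, thyroid, gut and skin, the DUOX enzymes supply hydrogen peroxide at the cell surface.

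The DUOX genes lie in head-to-head pairs on chromosome 15, and the short stretches between the paired starts are shown because each lies between the starts of a catalytic subunit and its own partner. In the coordinates of the files (hg19), 116 bases separate the starts of DUOX1 (45422192 to 45457776, plus strand) and DUOXA1 (45409564 to 45422075, minus strand). The starts of DUOX2 (45384852 to 45406359, minus strand) and DUOXA2 (45406523 to 45410304, plus strand) lie 163 bases apart. The whole locus covers 72925 bp. RefSeq promoter windows (GRCh38.p14, 250 bases before to 50 after each start) were found for 8 of the 9 members. The stretches between the paired RefSeq starts are printed 5′ to 3′ on the plus strand, and capitals mark matches on either strand to the GC-box core GGGCGG or to the TATA-box core TATAAA. The first stretch is chr15:45129880-45129993 and the second is chr15:45114173-45114325.
DUOXA1 and DUOX1: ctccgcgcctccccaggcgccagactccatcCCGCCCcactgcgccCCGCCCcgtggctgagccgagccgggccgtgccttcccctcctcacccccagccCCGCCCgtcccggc
DUOX2 and DUOXA2: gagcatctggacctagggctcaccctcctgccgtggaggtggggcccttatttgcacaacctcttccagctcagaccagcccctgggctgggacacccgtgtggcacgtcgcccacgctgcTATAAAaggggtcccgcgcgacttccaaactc

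The letters of these stretches differed. The 114 bases between DUOXA1 and DUOX1 had a GC content of 80.7%, 13 CpG dinucleotides, 3 matches to GGGCGG and 0 to TATAAA. The 153 bases between DUOX2 and DUOXA2 had a GC content of 63.4%, 8 CpG, 0 matches to GGGCGG and 1 to TATAAA. Among all 35116 RefSeq promoter windows of 300 bases, 44.95% held GGGCGG and 11.5% held TATAAA on either strand. No match of either motif overlapped the other, and a match is a string of letters and not a binding site.

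The keratinocyte markers were present in all 4 libraries, and replicate 1 stood apart. Each of 10 keratinocyte markers was above 1 TPM in every replicate, as were 56.7% of all protein-coding genes. The highest of these markers by mean was the basal keratin gene KRT14 with 6824, 7642, 6547 and 6375 TPM in replicates 1 to 4. The most variable of them were KRT15, with 238.5 to 13063.7 TPM, and the desmosome gene DSG3, with 39.9 to 578 TPM, both highest in replicate 1. Replicate 1 had 73082279 counted reads, and the other libraries had 17056035 to 19745170. The share of reads on protein-coding genes was 76.1% in replicate 1 against 95.3% to 96.4% elsewhere. Over the 12165 protein-coding genes averaging more than 1 TPM, replicate 1 correlated with replicates 2 to 4 at a Spearman rho of 0.754 to 0.78, and the latter with each other at 0.944 to 0.967. The points of these correlations are genes of the same libraries and are not independent.

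HaCaT expressed the DUOX branch of the family and the shared subunits CYBA and RAC1, while the NOX catalytic subunits were at or near the limit of detection. CYBA, RAC1, DUOX1, DUOX2 and DUOXA1 were above 1 TPM in every replicate, which made 5 of the 9 members, against 56.7% of all protein-coding genes. The same 5 had more than 3 reads in every replicate, as did 65.7% of all protein-coding genes. NOX1, NOX4, NOX5 and CYBB were below 1 TPM in all 4 replicates. The share of members detected was near the background.

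**Figure D1:**
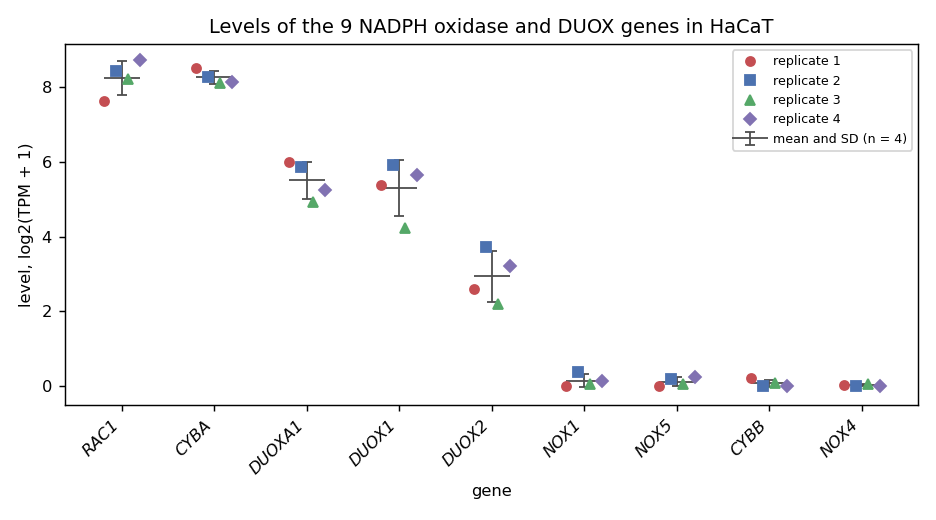
Level of each of the 9 genes as log2(TPM + 1), with 1 point per replicate and the mean and SD over 4 replicates. CYBA and RAC1 were at the top, DUOXA1, DUOX1 and DUOX2 followed, and NOX1, NOX5, CYBB and NOX4 stayed close to 0.

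DUOX1 was the main catalytic subunit at the RNA level. DUOX1 had 41.1, 59.8, 17.7 and 49.4 TPM in replicates 1 to 4, from 5671, 2258, 902 and 2089 reads. Its mean was 42.0 ± 17.9 TPM (SD, n = 4), which lay above 78.7% of protein-coding genes. The lowest value, in replicate 3, lay well below the other 3, which were within 1.44-fold of each other as the ratio of the highest to the lowest TPM + 1.

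DUOX2, the closest relative of DUOX1 and an enzyme best known from thyroid and gut, was expressed at a lower level. DUOX2 had 5.01, 12.3, 3.61 and 8.33 TPM in replicates 1 to 4, with a mean of 7.32 ± 3.88 TPM (SD, n = 4). Its highest value, in replicate 2, was below the lowest value of DUOX1, in replicate 3, so their levels did not overlap. Per kilobase, DUOX1 had 8.20 times the reads of DUOX2 in replicate 1 (95% Clopper-Pearson interval 7.60 to 8.85), 4.85 in replicate 2 (4.41 to 5.35), 4.89 in replicate 3 (4.20 to 5.72) and 5.93 in replicate 4 (5.32 to 6.62). The interval of replicate 1 lay above those of the other 3. DUOX1 exceeded DUOX2 by 2.36 ± 0.34 on the log2(TPM + 1) scale (SD, n = 4), in 4 of 4 replicates (exact two-sided sign-flip permutation, p = 0.13, adjusted p = 0.25 over 4 partner pairs). With 4 replicates the smallest p of this exact test rounds to 0.13, so no comparison between genes here can pass 0.05.

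DUOX1 contributed 82.9% to 89.1% of the summed TPM of DUOX1 and DUOX2. No marker set of thyroid or gut epithelium accompanied DUOX2, since 0 of 9 markers were above 1 TPM in every replicate, against 56.7% of all protein-coding genes. Among them the thyroglobulin gene TG had 2.05 TPM in replicate 1 and 0.132 to 0.303 TPM in the others, and the gut stem cell gene LGR5 had 0 reads in all 4. The summed level of the 9 markers was 0.615 to 2.36 TPM.

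DUOXA1, the maturation factor of DUOX1, was expressed in the range of its catalytic partner. DUOXA1 had 63.0, 56.9, 29.5 and 37.0 TPM in replicates 1 to 4, with a mean of 46.6 ± 15.9 TPM (SD, n = 4). With the deposited lengths, the order of DUOX1 and DUOXA1 was not the same in every library. Per kilobase, DUOX1 had 0.652 times the reads of DUOXA1 in replicate 1 (0.627 to 0.677) and 0.599 times in replicate 3 (0.545 to 0.658), but 1.05 times in replicate 2 (0.981 to 1.13) and 1.33 times in replicate 4 (1.24 to 1.45). The difference of DUOX1 over DUOXA1 was -0.21 ± 0.54 on the log2(TPM + 1) scale (SD, n = 4, exact sign-flip permutation test, p = 0.5, adjusted p = 0.667 over 4 pairs), smaller than its spread between replicates. The order of these genes depended on the length given to each. In read counts without length correction the difference was 0.56, and with exon unions from the annotation as lengths it was -0.65 ± 0.54, with DUOXA1 higher in 4 of 4 replicates (exact sign-flip permutation test, p = 0.13).

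DUOXA2, the partner of DUOX2, was measured in 3 of 4 replicates at levels of the same order as DUOX2 and was nearly missing from the deepest library. DUOXA2 had 14.0, 6.72 and 9.69 TPM in replicates 2 to 4, but 0.0571 TPM in replicate 1, from 2 reads. DUOX2 was measured in replicate 1 with 773 reads. The reads of DUOX2 per kilobase were 0.881 times those of DUOXA2 in replicate 2 (0.727 to 1.07), 0.538 times in replicate 3 (0.4165 to 0.699) and 0.860 times in replicate 4 (0.691 to 1.08), so the interval lay below 1 in replicate 3 alone. In replicate 1 the ratio was 87.8, with an interval from 24.2 to 726. The difference of DUOX2 over DUOXA2 was 0.35 ± 1.46 on the log2(TPM + 1) scale (SD, n = 4, exact sign-flip permutation test, p = 1, adjusted p = 1 over 4 pairs). Without replicate 1 it was -0.37, so its sign rested on that library, and without length correction it was 2.13.

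DUOXA1 and DUOXA2 run toward each other and overlap by 741 bp on opposite strands in the files. In the GENCODE release 29 annotation, 706 of 2554 exonic bases of DUOXA2 (27.6%) were shared with exons of DUOXA1. How the counting treated strand is not given in the sources used here, so reads of the overlap cannot be assigned to either gene with certainty. DUOXA2 reads made 10.8%, 9.98% and 11.5% of the DUOXA1 reads in replicates 2 to 4 and 0.0397% in replicate 1. Genes annotated as antisense took 0.0990% of all counted reads in replicate 1 and 0.505% to 0.569% in the others. The part of strand or of overlapping reads in the missing DUOXA2 was not tested. DUOX1 also overlaps an opposite-strand lincRNA (ENSG00000259539.1), which had 5, 47, 27 and 15 reads in replicates 1 to 4, few beside the 902 or more reads of DUOX1.

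**Figure D2:**
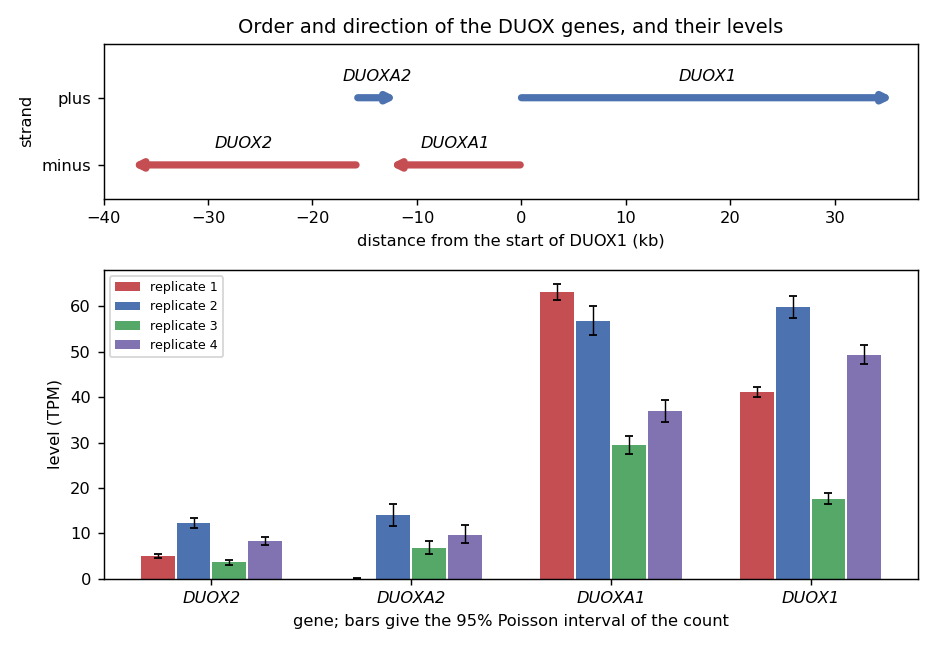
Upper panel, order and transcription direction of the 4 genes of the DUOX locus in kb from the start of DUOX1. Lower panel, their TPM in each replicate with the 95% Poisson interval of the count; DUOX1 and DUOXA1 were the higher pair in every replicate, and DUOXA2 had 0.0571 TPM in replicate 1.

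The NOX catalytic subunits, each at a locus of its own, yielded a handful of reads. NOX1, the colon-type oxidase (chromosome X, 100098313 to 100129334, minus strand), had 0, 5, 1 and 2 reads in replicates 1 to 4. NOX5, a calcium-regulated oxidase that needs no other subunit (chromosome 15, 69222839 to 69349501, plus strand), had 0, 3, 1 and 4 reads. NOX4, an oxidase whose activity is set mainly by its amount (chromosome 11, 89057521 to 89322779, minus strand), had 3, 0, 2 and 0 reads. None of these 3 genes was above 3 reads in more than 1 replicate. The annotated neighbours inside their spans had at most 1 read in any replicate, with 0 in all 4 for SPESP1 within NOX5 and for the pseudogene HNRNPA1P26 within NOX1.

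CYBB, the catalytic subunit of the phagocyte oxidase (chromosome X, 37639270 to 37672714, plus strand), had 16 reads in replicate 1 and 0, 2 and 0 in replicates 2 to 4. The 16 reads of the deepest library corresponded to 0.153 TPM (95% Poisson interval 0.0872 to 0.248). Where a gene had 0 reads, a count of 3 would have allowed up to 0.0488 TPM for NOX1 and 0.0395 TPM for NOX5 in replicate 1. In replicate 2 it would have allowed 0.0838 TPM for NOX4 and 0.105 TPM for CYBB, and in replicate 4 it would have allowed 0.0748 TPM for NOX4 and 0.0933 TPM for CYBB. The order of NOX1, NOX5, CYBB and NOX4 among themselves could not be read at this depth.

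The sum of DUOX1 and DUOX2 was 46.1, 72.1, 21.3 and 57.7 TPM in replicates 1 to 4, against 0.175, 0.442, 0.173 and 0.278 TPM for the sum of NOX1, NOX4, NOX5 and CYBB. The DUOX genes thus held 99.2% to 99.6% of the TPM of these 6 catalytic genes. The difference of the sums was 5.19 ± 0.64 on the log2(TPM + 1) scale (SD, n = 4), higher for DUOX in 4 of 4 replicates (exact sign-flip permutation test, p = 0.13, which is the lowest attainable). This scale understates the gap, because the NOX sums lay below the added value of 1. NOX3, the oxidase of the inner ear and not a member, had 1 read in all.

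The marker genes of phagocytes were read beside CYBB, since these cells express it most. Of 12 phagocyte and leukocyte markers, 2 were above 1 TPM in every replicate, against 56.7% of all protein-coding genes. These were CD68 (7.94, 43.9, 38.2 and 16.1 TPM in replicates 1 to 4) and CD14 (3.03, 8.08, 4.99 and 8.92 TPM). The defining leukocyte gene PTPRC had 3 reads in replicate 1 and 0 in the others, LYZ had 4 and 0, and MPO had 0 in all 4. FCER1G, named after its values were seen, had 10, 0, 3 and 0 reads. Other markers of the list were not highest in replicate 1. ITGB2 had 0, 21, 24 and 17 reads in replicates 1 to 4, ITGAM had 4, 20, 13 and 16, and CSF1R had 0, 12, 5 and 2. CD163 had 0, 1, 6 and 0 reads, SPI1 had 1, 1, 0 and 1, and AIF1 had 0 in all 4. The summed level of the 12 markers, most of it from CD68 and CD14, was 11.9 TPM in replicate 1 and 26.3 to 54.2 TPM in the others. The part of such cells in the CYBB reads was not tested. None of 10 fibroblast and endothelial markers was above 1 TPM in every replicate, against 56.7% of all protein-coding genes. The highest of these by mean were ACTA2 (0.421 to 10.6 TPM) and COL1A1 (0.5 to 8.54 TPM), and the 10 summed to 8.34 to 21.9 TPM. In bulk RNA, fewer cells of a type and less RNA per cell cannot be told apart.

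CYBA and RAC1, the subunits that serve the NOX enzymes, were the highest of the 9 genes. CYBA (chromosome 16, 88709697 to 88717492, minus strand) had 365, 308, 277.5 and 283.5 TPM in replicates 1 to 4. Its mean of 308.5 ± 39.9 TPM (SD, n = 4) lay above 97.7% of protein-coding genes, and the replicates differed by at most 1.31-fold. This fold was 2.41 by TPM over all genes and 2.17 after centring in classes of GC content, and with exon unions as lengths the level of CYBA was 106.5 to 133.5 TPM. By TPM over protein-coding genes its fold was the smallest of the 5 expressed members, with a coefficient of variation of 12.9%. CYBB was lower than CYBA by 8.20 ± 0.12 on the log2(TPM + 1) scale (SD, n = 4), in 4 of 4 replicates (exact sign-flip permutation test, p = 0.13, adjusted p = 0.25 over 4 pairs). With exon unions as lengths the difference of CYBB over CYBA was -6.74.

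RAC1 (chromosome 7, 6414126 to 6443598, plus strand) had 198, 346, 299.8 and 422 TPM in replicates 1 to 4, with a mean of 316 ± 93.9 TPM (SD, n = 4). It was highest of the 9 in replicates 2 to 4 and came after CYBA in replicate 1. The reads of CYBA per kilobase were 1.85 times those of RAC1 in replicate 1 (1.79 to 1.90) and 0.891, 0.925 and 0.671 times in replicates 2 to 4. The difference of RAC1 over CYBA was -0.0074 ± 0.62 on the log2(TPM + 1) scale (SD, n = 4, exact sign-flip permutation test, p = 1, adjusted p = 1 over 8 neighbouring pairs), with RAC1 higher in 3 of 4 replicates. These genes could not be ordered from the deposited lengths, and the length itself matters here: the files give CYBA 723 bp, while the union of its annotated exons is 3357 bp. With exon unions as lengths, RAC1 was higher than CYBA by 1.82.

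RAC1 was also the main RAC gene, with 73.2% to 85.3% of the summed TPM of RAC1, RAC2 and RAC3. The related RAC2, a GTPase best known from blood cells, had 14.7, 79.0, 49.6 and 93.0 TPM in replicates 1 to 4, and RAC3 had 19.3, 47.6, 39.2 and 51.6 TPM. All 3 RAC genes were lowest in replicate 1. The processed copy RAC1P2 on chromosome 4 held 191, 43, 31 and 21 reads, or 0.278% to 1.66% of the RAC1 reads, a small number beside RAC1 itself.

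**Figure D3:**
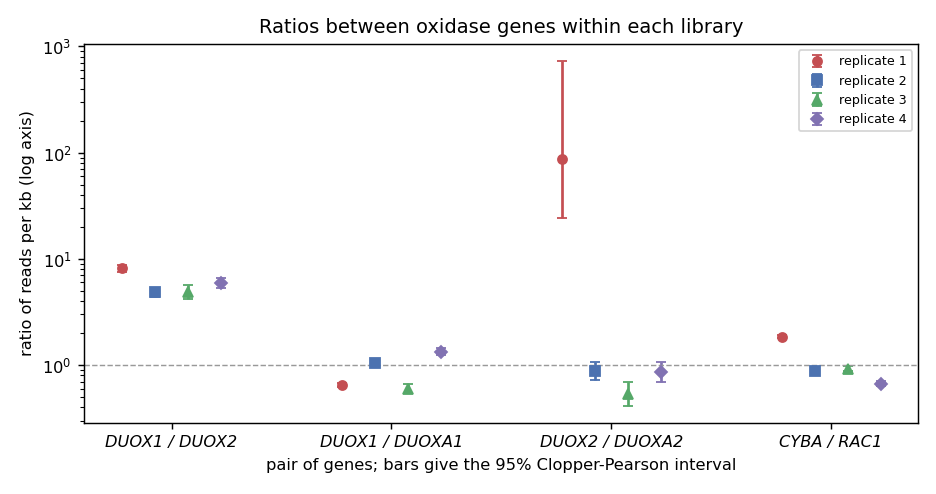
Ratio of reads per kilobase between pairs of genes in each replicate on a log axis, with 95% Clopper-Pearson intervals; the dashed line marks equal levels. DUOX1 was above DUOX2 in all 4 replicates, DUOX1 and DUOXA1 changed order between replicates with these deposited lengths, and the ratio of DUOX2 to DUOXA2 lay at 0.538 to 0.881 in replicates 2 to 4 but at 87.8 in replicate 1.

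Placed in order of their mean, the members thus fell into steps. The neighbouring pairs were formed from the means of these same libraries, so their tests give no separate support for the order. CYBA exceeded DUOXA1, the next gene below it, by 2.76 ± 0.36 on the log2(TPM + 1) scale (SD, n = 4) in 4 of 4 replicates, and DUOX2 exceeded NOX1 by 2.79 ± 0.54 in 4 of 4 (exact sign-flip permutation tests, p = 0.13 each, adjusted p = 0.333 over 8 neighbouring pairs). The step below CYBA rested on its deposited length, since CYBA exceeded DUOXA1 by 0.74 with exon unions as lengths and by 0.59 without length correction. With the deposited lengths the neighbours RAC1 and CYBA, and likewise DUOXA1 and DUOX1, did not differ beyond their spread, while with exon unions RAC1 was above CYBA and DUOXA1 above DUOX1 in 4 of 4 replicates. In all 4 replicates, with either set of lengths, CYBA and RAC1 held the first places, DUOX1 and DUOXA1 the next and DUOX2 the fifth.

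The cytosolic subunits that complete a NOX enzyme were present only in part. From a list of 13 other subunits and partners, 9 (69.2%) were above 1 TPM in every replicate, against 56.7% of all protein-coding genes. NCF1 (p47phox) and NCF4 (p40phox), cytosolic subunits of the phagocyte oxidase, had 1, 0, 2 and 1 reads and 2, 2, 0 and 0 reads in replicates 1 to 4. NCF1 has near-identical pseudogene copies, so its count is uncertain.

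The cytosolic partners of NOX1 were both expressed. NOXA1, the activator of NOX1, had 33.2, 11.8, 4.70 and 10.0 TPM in replicates 1 to 4. NOXO1, the organizer of NOX1, had 5.28, 5.24, 8.09 and 8.20 TPM. NOXA1 was highest in replicate 1 under each scaling tried except TPM over all genes, where replicate 2 came first.

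Other partners spanned a wide range of levels. POLDIP2, a protein that binds p22phox, had 119 to 176 TPM. TXNDC11, a DUOX-binding protein of the endoplasmic reticulum, had 22.8 to 35.6 TPM. C17orf62, an older symbol of CYBC1, a chaperone of the CYBB and CYBA complex, had 26.5 to 41.7 TPM. The scaffold genes SH3PXD2A and SH3PXD2B, which organize oxidases at invasive cell protrusions, had 9.92 to 25.04 and 5.84 to 21.7 TPM. The transcript of the CYBB chaperone was measured in all 4 libraries next to a near absence of CYBB.

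**Figure D4:**
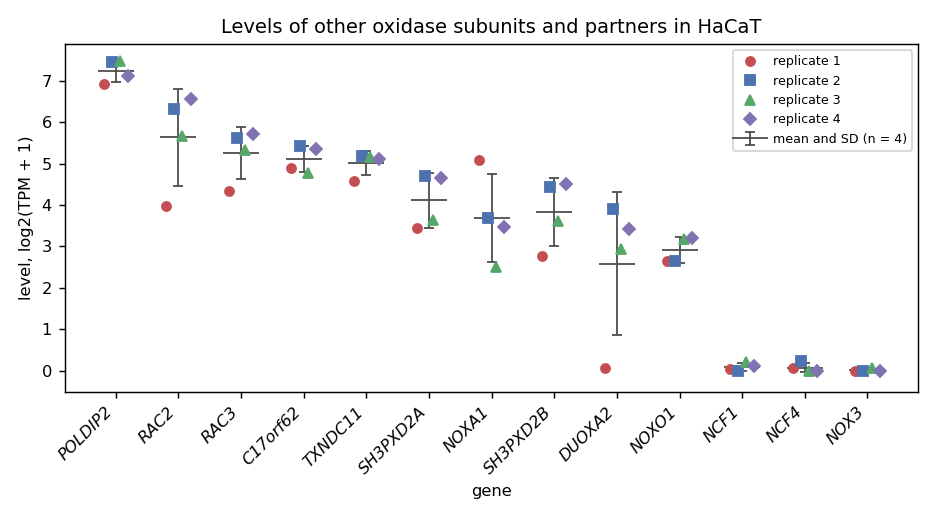
Level of 13 other oxidase subunits and partners as log2(TPM + 1), with 1 point per replicate and the mean and SD over 4 replicates. DUOXA2 was near 0 in replicate 1 alone, and NCF1, NCF4 and NOX3 were near 0 in every replicate.

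The substrate of the oxidases was covered by the NADPH-producing enzymes, and the RAC switch of NOX1 and the CYBB enzyme by the regulators of RAC. All 7 genes of NADPH supply were above 1 TPM in every replicate, against 56.7% of all protein-coding genes. The pentose phosphate enzymes PGD and PGLS were the highest by mean, with 215 ± 34.0 and 180 ± 58.4 TPM (SD, n = 4). NADK, the kinase that makes NADP from NAD, had 14.95 TPM in replicate 1 and 35.4 to 49.97 TPM in the others. NNT, the mitochondrial transhydrogenase, went the other way with 59.4 TPM in replicate 1 and 8.01 to 23.8 TPM in the others, though by TPM over all genes it was highest in replicate 4.

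Of 16 regulators of RAC, 10 (62.5%) were above 1 TPM in every replicate, near the 56.7% of all protein-coding genes. ARHGDIA, the inhibitor that holds RAC proteins in the cytosol, had 27.5 TPM in replicate 1 and 324 to 446 TPM in the others, and RACGAP1, a GTPase-activating protein, had a mean of 103 ± 24.3 TPM (SD, n = 4). The exchange factor VAV3 had 54.2 TPM in replicate 1 and 3.27 to 9.21 TPM in the others. Of the enzymes that use hydrogen peroxide, only heme peroxidases were listed. Among 6 heme peroxidases, 0 were above 1 TPM in every replicate, against 56.7% of all protein-coding genes. PXDN, the peroxidase of basement membranes, had 0.3 TPM in replicate 1 and 7.69 to 14.4 TPM in the others.

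Between replicates, the levels of the DUOX genes spread further than that of CYBA. Of the 5 expressed members, 4 passed a 2-fold difference between their highest and lowest TPM + 1, which 59.1% of the 12165 genes with a mean above 1 TPM also did. The folds were 3.26 for DUOX1, 2.89 for DUOX2, 2.13 for RAC1, 2.10 for DUOXA1 and 1.31 for CYBA. The count depended on single libraries and on the scaling: without replicate 1 or without replicate 3 it fell to 2, and the background share was then 22.7% and 44.8%, respectively. With DESeq2 size factors in place of TPM it was also 2, since DUOXA1 and RAC1 came to 1.82-fold and 1.98-fold. The background share stayed at 58.06% there. All 5 expressed members passed 2-fold by TPM over all genes, as did 81.98% of genes, and after centring in classes of GC content, as did 49.2%.

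DUOX1 and DUOX2 followed the same order of replicates, highest in replicate 2, then 4, then 1 and lowest in replicate 3, an order that 3.52% of the 12165 genes had. Replicate 2 was the highest for 23.3% of genes. DUOXA1 and CYBA shared the order 1, 2, 4, 3, which 9.52% of genes had, and 40.2% of genes were highest in replicate 1. RAC1 was highest in replicate 4, as were 23.3% of genes. CYBA, DUOX1, DUOX2 and DUOXA1 were lowest in replicate 3, as were 40.2% of all genes, and RAC1 was lowest in replicate 1, as were 37.5%. The place of the lowest replicate moved with the scaling. By TMM, CYBA and DUOXA1 were lowest in replicate 4, and DUOX1 and DUOX2 stayed lowest in replicate 3. By TPM over all genes, where other RNA classes lower the scale of replicate 1, all 5 expressed members were lowest in that replicate. RAC1 was lowest in replicate 1 under every scaling tried.

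Long genes as a class were low in replicate 3. DUOX1 deviated by -1.08 from its mean log2(TPM + 1) there, and the median of 608 genes of like length by -0.43. DUOX2 deviated by -0.73 and the median of its length class by -0.45, while DUOXA1 deviated by -0.58 and its class by -0.17. After centring within 20 length classes the folds were 2.13 for DUOX1 and 2.15 for DUOX2, so both stayed past 2-fold. In replicate 1, GC-rich genes were low and CYBA was not, with +0.25 against a median of -0.48 for 604 genes of like GC content. Likewise DUOXA1 had 0.49 against -0.31 in its GC class and DUOX1 had 0.10 against -0.42. DUOX2 was near its class, with -0.35 against -0.41. RAC1 was the reverse of CYBA, with -0.62 against a median of 0.27 in its class.

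**Figure D5:**
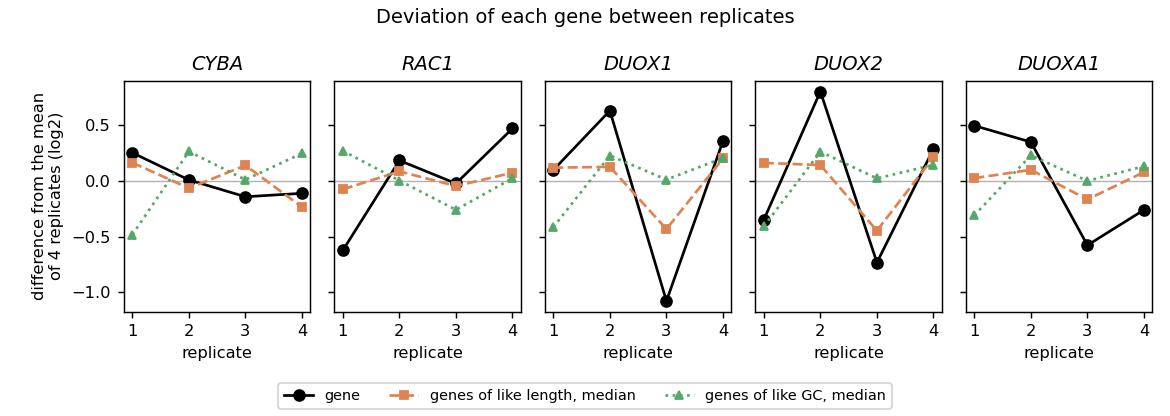
Deviation of each expressed member from its mean over 4 replicates on the log2(TPM + 1) scale (black), with the median deviation of genes of like length (orange) and of like GC content (green). DUOX1 deviated by -1.08 in replicate 3, further than the -0.43 of genes of like length.

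Genes with the profile most like each member were found by the root mean square distance between centred log2(TPM + 1) profiles over the 4 replicates. The nearest to DUOX1 were ESF1, BBX and NFAT5 at 0.08 to 0.09, and to DUOX2 they were CATSPER2, MICAL2 and SAMD4A at 0.04 to 0.05. For DUOXA1 they were SRFBP1, GPR37L1 and ZNF311, for RAC1 WDR1, MPST and CENPBD1, and for CYBA RAB21, SRSF10 and AP1M2, all at 0.02 to 0.03 after rounding. Within a distance of 0.25 lay 129 genes for DUOX1, 191 for DUOX2, 650 for DUOXA1, 1257 for RAC1 and 2274 for CYBA. The distance depends on how far a member itself spread between replicates, so these counts largely restate the folds. They do not show that the profiles of the DUOX genes are rare. With 4 points such likeness is a description.

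DUOX2 and its partner are described as interferon-responsive in epithelia, and interferon-induced genes differed widely between these libraries. The median TPM of 16 such genes was 13.6, 250.4, 244 and 19.98 in replicates 1 to 4. ISG15, a ubiquitin-like modifier, had 87.4, 2711, 3177 and 179 TPM, IFI6 had 11.6, 2417, 2442 and 29.2 TPM, and the antiviral GTPase gene MX2 had 0.209, 119, 130 and 0.136 TPM. The 16 genes were thus high in replicates 2 and 3, where DUOX2 had 12.3 and 3.61 TPM and DUOXA2 had 14.0 and 6.72 TPM, and low in replicates 1 and 4, where DUOX2 had 5.01 and 8.33 TPM and DUOXA2 had 0.0571 and 9.69 TPM. The part of interferon in the levels of either gene was not tested.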

How the data were processed

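Total RNA of 4 untreated HaCaT replicates was sequenced by Illumina protocols. The authors deposited raw counts and a length per gene, beside RPKM (replicates 1 and 2) or TPM (replicates 3 and 4), which the counts returned within a relative difference of 6.655e-07. The submitters' processing notes name hg19, HISAT2, TopHat2, Bowtie2 and HISAT. The counting program, annotation and strand setting are not given in the sources used here. From the counts, TPM over protein-coding genes was computed for each library. At most 0.608% of genes had identical counts in a pair of libraries. Samples were grouped by title.

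Within-replicate differences of log2(TPM + 1) were tested by two-sided exact sign-flip permutation with Benjamini-Hochberg adjustment. The p-values measure the spread between these samples, and a difference on this scale understates that of low genes. Intervals (95%, Poisson or Clopper-Pearson) and the floor of 3 counts hold for counting error alone, as PCR copies could not be removed by molecular identifiers.

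Members, lists and tests were chosen with earlier results of these data known. Named are all members and partners, genes overlapping or copied from a member, from each other list the 2 highest by mean and the 2 with the largest fold between replicates, and the 3 nearest profiles of each expressed member. PTPRC, LYZ, MPO, FCER1G, ITGB2, ITGAM, CSF1R, CD163, SPI1, AIF1, TG and LGR5 were named after their values were seen. Of the partner and NADPH supply lists, 1 gene each is not reported here. Promoters came from RefSeq (GRCh38.p14), and GC content and exon unions from GENCODE release 29 (GC for 99.3% of genes). Scalings by TMM (edgeR 4.0.16) and size factors (DESeq2 1.42.0, both in R 4.3.3), other lengths, pseudocounts and detection limits, and leaving out each replicate were the alternatives. Other steps, tested on simulated data, used SciPy 1.17.1, pandas 2.3.3, NumPy 2.4.6 and matplotlib 3.10.9 in Python 3.11.15.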

Additional observations from a re-analysis of the deposited data

Results flagged for a closer look

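Of 45 sets of 4 replicate values tested for a sample far from the others, 5 were singled out, 4 of them in replicate 1. Chance gives about 1 in 20 sets, or 2.25, only for independent values with a normal distribution. These sets share the same libraries and hold low counts, so the 5 cannot be weighed against that rate. The RAC exchange factor VAV3 had 54.24 TPM there and 3.27 to 9.21 TPM in the others. The keratin gene KRT15 had 13063.7 TPM there and 238.5 to 1308 TPM in the others. The total count of replicate 1 was 73082279 against 17056035 to 19745170, and its protein-coding share was 76.09% against 95.3% to 96.4%. NOX3 had 0.05443 TPM in replicate 3, which is 1 read, and 0 in the others, a pattern that the rule always singles out.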

How the results depend on the processing

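Of 207 alternative values for 19 results, 186 were classed as the same, 15 as moved and 6 as changed in sign. A fold classed as the same could still cross 2-fold. That of DUOXA1 fell from 2.10 to 1.78 by TMM, and that of RAC1 from 2.13 to 1.75 without replicate 4. No paired analysis was possible because the 4 replicates form 1 group, with no other group to pair them with (differences between genes were taken within replicates). The 5 members detected in every replicate stayed 5 when any replicate was left out. With more than 3 reads summed over replicates 2 to 4 as the limit, a looser rule chosen after seeing the data, 7 members passed. Without length correction, the order of CYBA and RAC1, then DUOX1 and DUOXA1, then DUOX2 held in 2 replicates in place of 4, RAC1 minus CYBA became 1.712, and DUOXA1 minus DUOX1 became -0.5646 (DUOX1 minus DUOXA1 0.5646), by construction through the gene lengths. With exon unions as lengths RAC1 minus CYBA was 1.822. Leaving out 1 replicate each, RAC1 minus CYBA ranged from -0.2009 to 0.2837, the last without replicate 1, and DUOX2 minus DUOXA2 from -0.3693 to 0.7143. Likewise the members past 2-fold ranged from 2 to 4 and the share of all genes past it from 22.67% to 54.57%. The members past 2-fold were 2 without length correction, with DESeq2 size factors and after centring in length classes, an alternative chosen after seeing the data. The share of all genes past 2-fold was then 58.68%, 58.06% and 54.87%, respectively. Without a filter on the mean, 39.25% of all genes passed. Relative to TPM, the median of all genes shifted by -1.56 on the log2 scale in replicate 1 under TPM over all genes and by 0.22 in replicate 3 under TMM. Under TPM over all genes the folds of CYBA, RAC1 and DUOX2 were 2.41, 6.33 and 4.67, and after centring in GC classes that of CYBA was 2.17. The cause was not tested. Depth limits NOX1, NOX4, NOX5 and CYBB, whose counts allow no order among them.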
